A study of Mus musculus with 9 samples.

Results

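The liver-enriched transcription factors are a small set of DNA-binding proteins that together set the gene programme of the hepatocyte. The 9 genes described here were chosen by symbol: Hnf4a, the forkhead genes Foxa1, Foxa2 and Foxa3, the C/EBP genes Cebpa, Cebpb and Cebpd, the homeobox gene Onecut1, and Prox1. Each symbol matched a single Ensembl identifier among the 56719 genes listed, and all 9 were among the 17704 genes that passed the filter on low counts and were tested. The 9 libraries were made from polyadenylated RNA of whole liver of C57BL/6J mice and fall into 3 groups of 3. FMT-Con A mice were gavaged for 4 weeks with faeces of mice in which concanavalin A at 10 mg/kg had been used to model autoimmune hepatitis, and then received concanavalin A (10 mg/kg) by tail vein on the day the liver was taken. Con A mice received PBS in place of the faeces and the same injection. WT mice received PBS throughout and no concanavalin A. The FMT-Con A group therefore differs from Con A, by the labels, in the faecal gavage, no group received the gavage without the lectin, and the hours between injection and collection are not given in the labels. Whether the 3 libraries of a group are separate animals rests on the numbers in their labels, so a p-value here covers the spread between libraries, which may be technical. The labels give the sex as male in the housing protocol and as female in the sample tag, while the Y-linked gene Ddx3y had 2676 to 6192 counts in each library.

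HNF4A is an orphan nuclear receptor that maintains lipoprotein, clotting factor and bile acid genes in the adult hepatocyte. The FOXA proteins open closed chromatin so that other factors can bind, and FOXA1 and FOXA2 act together in specifying the liver from foregut endoderm. The C/EBP proteins are basic leucine zipper factors that bind the same DNA element as dimers: C/EBP-alpha keeps metabolic genes on and holds back proliferation, while C/EBP-beta and C/EBP-delta are induced by interleukin-6, interleukin-1 and tumour necrosis factor and drive acute phase genes. ONECUT1, also called HNF6, acts in hepatoblast and bile duct development, and PROX1 is a homeodomain protein of hepatoblasts, adult hepatocytes and lymphatic endothelium. Concanavalin A, a lectin from jack bean, stimulates T cells when injected and brings about acute hepatitis in mice.

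Of the 9 genes 7 differed between injected and WT livers, in opposite directions within the set. Foxa3, Cebpb, Cebpd and Hnf4a were higher in both FMT-Con A and Con A livers than in WT livers, and Foxa1, Foxa2 and Onecut1 were lower. Cebpd changed by the largest fold of the set and Foxa2 fell by the largest fold in Con A livers. Cebpa and Prox1 passed the test in no comparison. Between FMT-Con A and Con A livers Foxa2 alone passed, at 17.5 ± 1.2 CPM in FMT-Con A livers and 5.22 ± 1.24 CPM in Con A livers (SD, n = 3 each), against 39.7 ± 9.24 CPM in WT livers. CPM are counts per 1e6 counts of a library whose total is adjusted by its TMM factor (a factor that aligns the bulk of genes between libraries). A gene passed when its edgeR quasi-likelihood p, two-sided and adjusted by Benjamini-Hochberg over all tested genes, was below 0.05.

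The changes stand against a wide response of the whole liver. In FMT-Con A vs WT, 4 of the 9 passed as higher and 3 as lower, against a background of 59% of all tested genes called in either direction (31.2% higher and 27.9% lower). For Con A vs WT the counts were again 4 higher and 3 lower, against a background of 63.4% called (32.5% higher and 30.9% lower). For FMT-Con A vs Con A 1 was higher and 0 lower, against a background of 16.8% called (6.26% higher and 10.6% lower). With only 9 genes these counts are near or somewhat above the background against WT and near it between the injected groups. By edgeR at an unadjusted p below 0.05, 2 were higher and 1 lower in FMT-Con A vs Con A, and by DESeq2 with adjustment 2 were higher (Foxa1 and Foxa2) and 1 was lower (Foxa3). All libraries of a group lay above or below all of the other for 8 of the 9 genes in FMT-Con A vs WT (69.1% of all genes), 7 in Con A vs WT (69.8%) and 4 in FMT-Con A vs Con A (32.7%). The median absolute log2 fold change of the 9 was 1.18 in FMT-Con A vs WT, against 0.77 over all genes, and 1.67 in Con A vs WT, against 0.91. Between FMT-Con A and Con A it was 0.26, against 0.38 over all genes. The shares of all tested genes given here are also the background for the lists of related genes below.

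**Figure D1:**
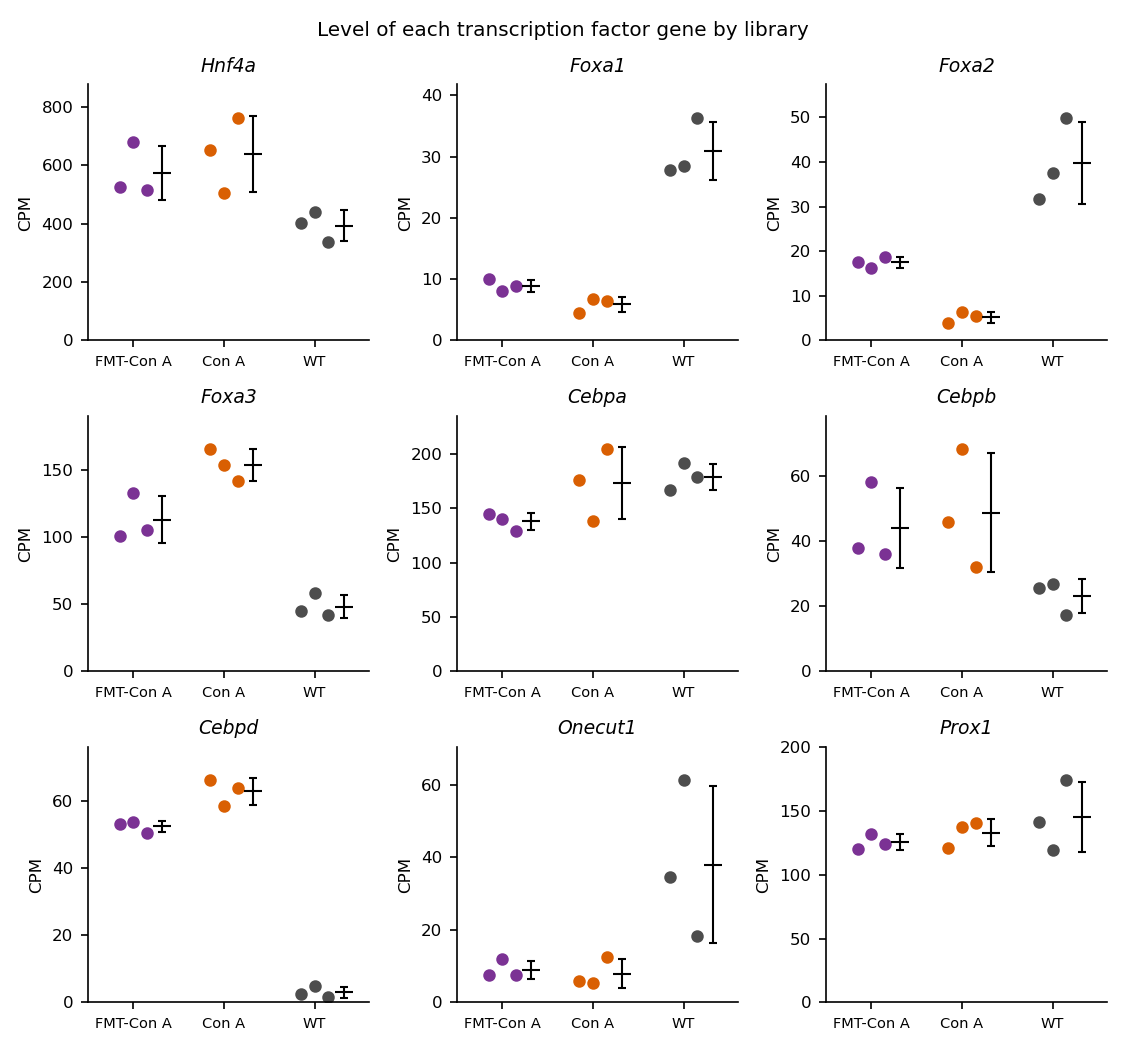
Level of each gene in CPM (linear axes from 0, a scale per gene) in the 3 libraries of FMT-Con A, Con A and WT, with points for libraries, and a bar for the group mean with its SD. Foxa2 runs from 16.3 to 18.7 CPM in FMT-Con A, from 3.88 to 6.31 in Con A and from 31.8 to 49.9 in WT, while the groups overlap for Prox1.

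Total counts ran from 21580482 to 29466806 in FMT-Con A, 21772376 to 25890947 in Con A and 20513051 to 22770276 in WT libraries. The hepatocyte markers were present in every library, 12 of 12 with counts, and their sum was 34206 to 40845 CPM in FMT-Con A, 57764 to 68551 CPM in Con A and 62197 to 72998 CPM in WT. Alb was the largest part of that sum, at a mean of 19256 CPM in FMT-Con A, 35418 in Con A and 38805 in WT. Skeletal muscle markers, 17 genes of which 12 to 17 had counts, stood apart in 4 libraries: they summed to 16498, 1762 and 16181 CPM in FMT-Con A 1, 2 and 3 and to 1923 CPM in Con A 3, against 3.4 and 7.52 CPM in Con A 1 and 2 and 3.89 to 9.98 CPM in WT. No other pair of libraries was as alike as FMT-Con A 1 with 3, which still differed by more than sampling noise. Their median squared difference was 2.88 times that expected from sampling, against 3.62 for the next pair. This ratio was 13.4 between FMT-Con A 2 and Con A 2, below the value of each with its group mates. With FMT-Con A 1 and 3, FMT-Con A 2 stood at 14.4 and 14.1. Con A 2 stood at 14.1 and 18.5 with Con A 1 and 3. Con A 1 and 3 were nearest to each other, at 8.69. Mitochondrial transcripts made up 7.44 to 11.7% of counts in FMT-Con A, 5.03 to 9.96% in Con A and 19.6 to 22.4% in WT. In whole liver, fewer cells of a type and less RNA per cell cannot be told apart.

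Core promoters are shown for 4 genes that differed within a family, in opposite directions (Foxa1 against Foxa3) or with only Cebpb of the pair passing the test (Cebpb against Cebpa). The sequences are RefSeq windows on GRCm38.p6, from 250 bases before to 50 bases after a start, read 5′ to 3′ on the gene's strand. Capitals mark matches, on either strand, to CCAAT, to the TATA letters TATAAA, to TGACG (the short form of the cAMP response element) or to the FOXA letters TGTTTAC.
Foxa1, chr12:57546062-57546361, minus strand: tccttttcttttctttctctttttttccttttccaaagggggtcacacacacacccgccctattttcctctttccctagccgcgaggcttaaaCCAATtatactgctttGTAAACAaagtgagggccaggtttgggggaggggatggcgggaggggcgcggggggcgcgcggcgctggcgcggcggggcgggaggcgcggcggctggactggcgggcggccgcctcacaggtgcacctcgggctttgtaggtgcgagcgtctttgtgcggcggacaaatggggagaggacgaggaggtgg
Foxa3, chr7:19023490-19023789, minus strand: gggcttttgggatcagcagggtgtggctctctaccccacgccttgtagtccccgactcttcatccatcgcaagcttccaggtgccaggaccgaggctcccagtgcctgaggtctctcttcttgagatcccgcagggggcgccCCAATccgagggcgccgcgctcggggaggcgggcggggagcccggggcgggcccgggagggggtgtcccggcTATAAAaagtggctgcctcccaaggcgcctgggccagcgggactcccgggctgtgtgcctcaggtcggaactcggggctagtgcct
Cebpa, chr7:35119043-35119342, plus strand: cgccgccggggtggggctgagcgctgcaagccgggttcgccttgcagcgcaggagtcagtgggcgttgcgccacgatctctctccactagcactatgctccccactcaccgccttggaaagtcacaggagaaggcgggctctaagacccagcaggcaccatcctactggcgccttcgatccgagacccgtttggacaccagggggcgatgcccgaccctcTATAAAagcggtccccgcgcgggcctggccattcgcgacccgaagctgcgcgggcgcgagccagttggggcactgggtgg
Cebpb, chr2:167688665-167688964, plus strand: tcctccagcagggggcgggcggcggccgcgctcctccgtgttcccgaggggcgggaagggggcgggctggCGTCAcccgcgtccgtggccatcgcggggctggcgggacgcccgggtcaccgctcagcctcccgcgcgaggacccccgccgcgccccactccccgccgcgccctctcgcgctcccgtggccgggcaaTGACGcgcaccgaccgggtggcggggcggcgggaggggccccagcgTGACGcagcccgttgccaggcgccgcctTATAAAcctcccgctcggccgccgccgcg

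The RefSeq windows used covered 8 of the 9 genes, 12 windows in all. Cebpd had no window, so its promoter was not searched for any of the letters below. Hnf4a has an upstream and a downstream start 40298 bases apart, known as P2 and P1, and counts per gene do not separate them. Positions here are the first base of a match, with the start base as 1 and no position 0. Foxa1 holds a match to the FOXA letters at -141, present in 3.65% of all 32851 windows, and CCAAT at -157, present in 37.4%. Foxa3 holds CCAAT at -108 and TATA letters at -36, which 13.6% of all windows have, and Cebpa has TATA letters at -30. Cebpb holds 3 TGACG matches, at -180, -53 and -7, where 20.8% of all windows have at least 1 and 1.03% have 3 or more. The TATA letters of Cebpb are at 22, after the start. No window of the set matched the letters searched for STAT factors (TTCNNNGAA, 8.3% of all windows), NF-kB (1.63%), C/EBP (TTNNGCAA, 10.8%), HNF4 (CAAAGTCCA, 0.475%) or the full cAMP response element (TGACGTCA, 1.79%). A match describes letters in the window and nothing about binding.

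Hnf4a lies on chr2:163506808-163572910 (GRCm38, plus strand, ENSMUSG00000017950). Its level was 524, 680.2 and 515 CPM in FMT-Con A livers and 652, 503 and 762 CPM in Con A livers, against 401, 440.3 and 337 CPM in WT livers. Every injected library was above every WT library, and the FMT-Con A and Con A libraries overlapped. The log2 fold change was 0.54 in FMT-Con A vs WT (SE 0.2, edgeR adjusted p = 0.0364) and 0.70 in Con A vs WT (SE 0.2, edgeR adjusted p = 0.0107). Between FMT-Con A and Con A it was -0.16 (edgeR adjusted p = 0.603), and 0.03 with library totals alone. The call in FMT-Con A vs WT is lost when WT 1, WT 2, WT 3 or FMT-Con A 2 is left out in turn, with log2 fold changes of 0.56, 0.64, 0.45 and 0.41. The call in Con A vs WT is lost without WT 3, where the log2 fold change is 0.59 (edgeR adjusted p = 0.0545). Per length Hnf4a was the highest of the 9 genes in every group, at 119 CPM per kb of exon in FMT-Con A, 132 in Con A and 81.3 in WT.

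Known target genes of HNF4A were mostly lower in injected livers, where Hnf4a mRNA itself was higher. Of 23 targets tested, 0 were higher and 17 lower in FMT-Con A vs WT (median log2 fold change -1.32, against 0.03 over all genes), with 6 not passing. In Con A vs WT 4 were higher and 15 lower (median -0.84, against 0.01). Cyp7a1, which catalyses the first step of bile acid synthesis, had 0.364 ± 0.166 CPM in FMT-Con A livers and 0.185 ± 0.0787 CPM in Con A livers, against 104 ± 24.3 CPM in WT livers (mean ± SD, n = 3 each, as for the genes that follow). G6pc, the last enzyme of glucose release, had 3.17 ± 0.411 CPM in FMT-Con A livers and 10.2 ± 4.03 CPM in Con A livers, against 207 ± 112 CPM in WT livers. Apoc2, a cofactor of lipoprotein lipase, had log2 fold changes of -2.48 in FMT-Con A vs WT and -3.37 in Con A vs WT, and Apoc3 had -1.51 and -1.34. The counts of Apoc2 were low, at 2.30 ± 0.600 CPM in FMT-Con A livers and 1.24 ± 0.104 CPM in Con A livers. In WT livers Apoc2 had 12.9 ± 1.11 CPM, beside 2627 ± 22.9 CPM of Apoc3. Among the 4 targets that passed as higher in Con A vs WT were Apob and Apom, apolipoproteins, and F12, a clotting factor, with log2 fold changes of 0.91, 0.86 and 0.38. Between FMT-Con A and Con A livers, Apoc2 passed as higher (0.90) and 5 targets as lower, namely Pck1 (-1.77), G6pc (-1.69), Lipc (-1.09), Apob (-0.86) and Mttp (-0.71). The summed hepatocyte markers, 34206 to 40845 CPM in FMT-Con A and 57764 to 68551 CPM in Con A, differed in the same direction. Alb was the largest part of that sum, at 19256 ± 1261 CPM in FMT-Con A livers and 35418 ± 2291 CPM in Con A livers. Of the 12 markers, 3 passed as lower in FMT-Con A vs Con A (Alb, Apob and Cps1, of which Apob is also in the target list), and their part in these falls was not tested.

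The 3 FOXA genes changed in opposite directions, so that the make-up of the family differed between groups. Foxa3 lies on chr7:19013284-19023538 (minus strand, ENSMUSG00000040891). Its level was 101, 133 and 105 CPM in FMT-Con A livers and 166, 153 and 142 CPM in Con A livers, against 44.7, 58.4 and 41.8 CPM in WT livers. The 3 groups did not overlap. Its log2 fold change was 1.23 in FMT-Con A vs WT (SE 0.17, edgeR adjusted p = 0.000193) and 1.67 in Con A vs WT (SE 0.17, edgeR adjusted p = 2.1e-05). The difference between FMT-Con A and Con A, -0.44 (SE 0.16), missed the threshold (edgeR adjusted p = 0.0885), which it passed by DESeq2 (adjusted p = 0.0497) and by edgeR without FMT-Con A 2 (adjusted p = 0.0353).

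Foxa2, which in the adult liver acts on fasting and bile acid genes, lies on chr2:148042877-148046969 (minus strand, ENSMUSG00000037025). Its level was 17.5, 16.3 and 18.7 CPM in FMT-Con A livers and 3.88, 6.31 and 5.47 CPM in Con A livers, against 31.8, 37.5 and 49.9 CPM in WT livers. The groups were separate, with FMT-Con A between Con A and WT. Foxa2 had a log2 fold change of -1.18 in FMT-Con A vs WT (SE 0.2, edgeR adjusted p = 0.00068) and -2.93 in Con A vs WT (SE 0.21, edgeR adjusted p = 2.9e-06). Foxa2 was 3.35-fold higher in FMT-Con A than in Con A livers (95% interval 2.43 to 4.63, edgeR adjusted p = 0.00218). That call held with each library left out in turn, with log2 fold changes of 1.59 to 1.91. Without FMT-Con A 1 and 3, the muscle-rich libraries, the log2 fold change was 1.64 against 1.74 with them, and with a single FMT-Con A library left, taken to vary like the others, the edgeR adjusted p was 0.0592. FMT-Con A 2 and Con A 3 had like sums of muscle markers, 1762 and 1923 CPM, and 16.3 and 5.47 CPM of Foxa2. The part of muscle RNA and of the share of hepatocytes in the difference was not tested.

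**Figure D2:**
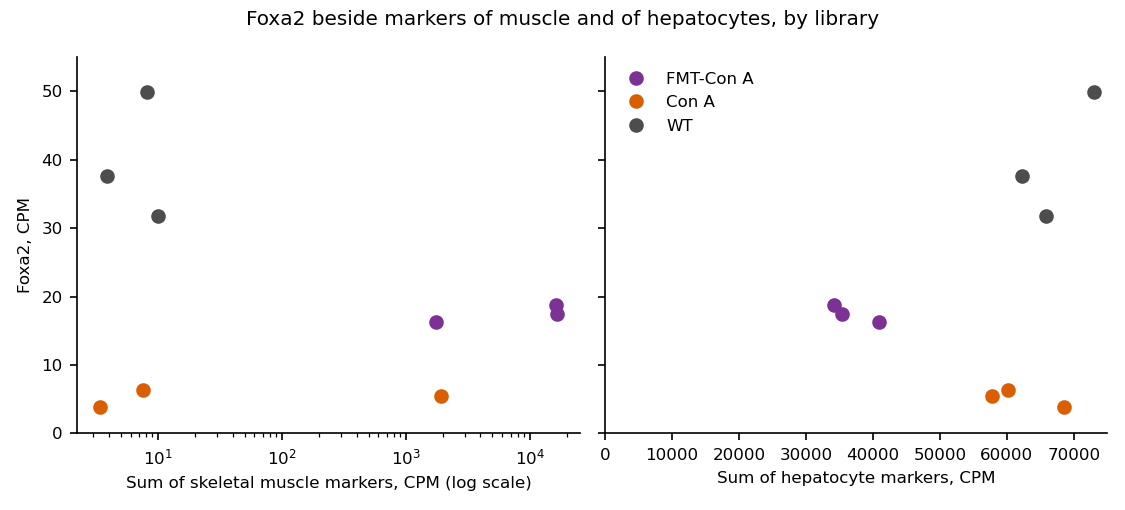
Foxa2 in CPM (vertical axis) against the summed CPM of 17 skeletal muscle markers (left, log axis) and of 12 hepatocyte markers (right, linear axis), a point per library. Alb is the largest part of the hepatocyte sum. The FMT-Con A libraries hold 16.3 to 18.7 CPM of Foxa2 at 1762, 16181 and 16498 CPM of muscle markers, and Con A 3 holds 5.47 CPM at 1923 CPM.

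Foxa1, the close relative of Foxa2, lies on chr12:57540628-57546916 (minus strand, ENSMUSG00000035451). Its level was 9.98, 8.02 and 8.85 CPM in FMT-Con A livers and 4.40, 6.74 and 6.47 CPM in Con A livers, against 27.8, 28.5 and 36.3 CPM in WT livers. The order of the groups was that of Foxa2, without overlap. Foxa1 had a log2 fold change of -1.78 in FMT-Con A vs WT (SE 0.18, edgeR adjusted p = 3.44e-05) and -2.39 in Con A vs WT (SE 0.19, edgeR adjusted p = 4.87e-06). Foxa1 lay just outside the threshold in FMT-Con A vs Con A, at 0.61 (SE 0.19, edgeR adjusted p = 0.0516), and passed under 5 other settings, DESeq2 among them (adjusted p = 0.0299).

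On a scale of CPM per kb of exon, which allows the genes to be compared, Foxa3 made up 84.4 ± 2.7% of the FOXA total in FMT-Con A livers and 95 ± 1.33% in Con A livers, against 47.8 ± 7.76% in WT livers (SD, n = 3 each). The share of Foxa2 was 11.4 ± 1.9% in FMT-Con A and 2.80 ± 0.749% in Con A, against 33.5 ± 5.7% in WT. The share of Foxa1 was 4.17 ± 0.889% in FMT-Con A and 2.24 ± 0.586% in Con A, against 18.7 ± 2.37% in WT. The 3 groups were separate for each of these shares. The summed level of the family was 65.6 ± 7.87 CPM per kb in FMT-Con A and 79.4 ± 5.16 in Con A, against 49.7 ± 5.22 in WT.

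**Figure D3:**
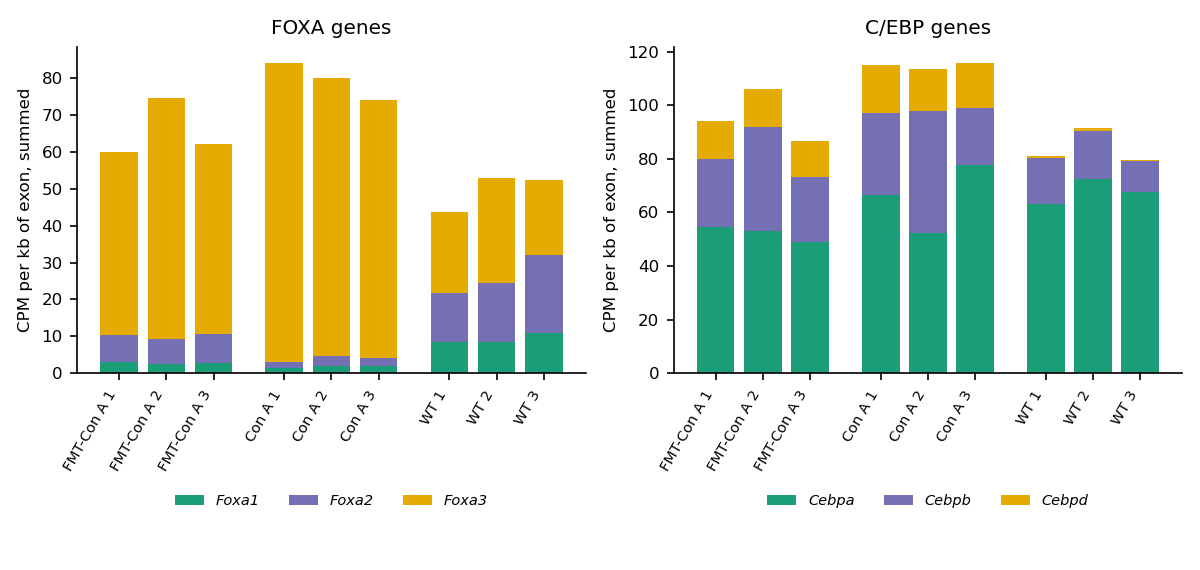
Summed level of the FOXA genes (left) and the C/EBP genes (right) in CPM per kb of exon, from 0, a stacked bar per library in the order FMT-Con A, Con A, WT, split by gene. Foxa3 fills 82.7 to 87.5% of the FOXA bar in FMT-Con A, 94.1 to 96.5% in Con A and 39.1 to 54.0% in WT, and Cebpd is 13.5 to 15.6% of the C/EBP bar in FMT-Con A, 13.8 to 15.4% in Con A and 0.588 to 1.39% in WT.

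Of 7 known FOXA targets, 2 were higher and 5 lower in FMT-Con A vs WT (median log2 fold change -1.44), and 2 were higher and 4 lower in Con A vs WT (median -0.70). The targets that passed as higher were Igfbp1, a binding protein of insulin-like growth factors, at 307 ± 9.03 CPM in FMT-Con A livers and 1564 ± 709.9 CPM in Con A livers, against 6.76 ± 3.49 CPM in WT livers, and Tat, tyrosine aminotransferase, with log2 fold changes of 1.22 and 2.11. Afp, the fetal serum protein, and Ttr, the thyroxine carrier, were lower in both comparisons, with log2 fold changes of -2.23 and -1.44 in FMT-Con A vs WT and -1.90 and -0.84 in Con A vs WT. Albumin (Alb) had a log2 fold change of -1.01 in FMT-Con A vs WT, where it passed, and of -0.13 in Con A vs WT, where it did not. Set against Con A, FMT-Con A livers had 0 of these targets higher and 4 lower (Igfbp1, Pck1, G6pc and Alb), with a median of -0.90 beside -0.01 over all genes.

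Among the C/EBP genes, Cebpd and Cebpb were higher in injected livers and Cebpa passed in no comparison. Cebpa is a gene of 1 exon on chr7:35119293-35121928 (plus strand, ENSMUSG00000034957). Its level was 144, 140.1 and 129 CPM in FMT-Con A livers and 176, 138 and 205 CPM in Con A livers, against 167, 191 and 179 CPM in WT livers. The FMT-Con A libraries all lay below the WT libraries, and Con A overlapped both. Cebpa had a log2 fold change of -0.38 in FMT-Con A vs WT (SE 0.16, edgeR adjusted p = 0.061), past the threshold when the 2 groups were fitted alone (edgeR adjusted p = 0.0208) or when Con A 2 (edgeR adjusted p = 0.0282) or Con A 3 (edgeR adjusted p = 0.0427) was left out of the joint fit. In Con A vs WT it was -0.05, with a 95% interval of -0.40 to 0.30, and 0.09 without Con A 2. Against Con A livers the FMT-Con A value was -0.33 (edgeR adjusted p = 0.17), and -0.45 (edgeR adjusted p = 0.0442) without Con A 2.

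Cebpb, also of 1 exon, lies on chr2:167688915-167690418 (plus strand, ENSMUSG00000056501). Its level was 37.9, 58.1 and 36.1 CPM in FMT-Con A livers and 45.9, 68.4 and 32 CPM in Con A livers, against 25.8, 26.7 and 17.3 CPM in WT livers. FMT-Con A 2 and Con A 2 were the highest libraries of their groups, and both injected groups lay above WT. The log2 fold change was 0.92 in FMT-Con A vs WT (SE 0.29, edgeR adjusted p = 0.0207) and 1.07 in Con A vs WT (SE 0.29, edgeR adjusted p = 0.00934). The call in FMT-Con A vs WT is lost without WT 3 (0.75, edgeR adjusted p = 0.0737) or without FMT-Con A 2 (0.68, edgeR adjusted p = 0.0635). Between FMT-Con A and Con A it was -0.15 (edgeR adjusted p = 0.75), 0.02 with library totals alone and 0.20 without Con A 2.

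Cebpd, on chr16:15887286-15891031 (plus strand, 1 exon, ENSMUSG00000071637), ranked low among tested genes in WT livers and high in injected livers. Its level was 53.3, 53.8 and 50.7 CPM in FMT-Con A livers and 66.5, 58.7 and 64.0 CPM in Con A livers, against 2.52, 4.78 and 1.76 CPM in WT livers. The spread within each injected group was small beside the gap to WT. Cebpd had a log2 fold change of 4.13 in FMT-Con A vs WT (SE 0.29, edgeR adjusted p = 3.88e-06). In Con A vs WT it was 4.39, a 21-fold difference (95% interval 13.2 to 33.2, edgeR adjusted p = 1.84e-06). Cebpd did not pass in FMT-Con A vs Con A (-0.26, edgeR adjusted p = 0.489), although the libraries of those groups did not overlap. Per length, 86.0% of the 16802 tested genes with a symbol lay below Cebpd in FMT-Con A and 87.2% in Con A, against 30.4% in WT.

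Within a library, the ratio of C/EBP counts does not depend on scaling between libraries. There were 0.263, 0.415 and 0.279 Cebpb counts per Cebpa count in FMT-Con A livers and 0.261, 0.494 and 0.157 in Con A livers, against 0.155, 0.140 and 0.0967 in WT livers. Con A 3 lay next to the highest WT library. There were 0.370, 0.385 and 0.392 Cebpd counts per Cebpa count in FMT-Con A and 0.378, 0.425 and 0.313 in Con A, against 0.0152, 0.0251 and 0.00994 in WT. The log2 ratio of Cebpd to Cebpa was 4.61 higher in FMT-Con A than in WT and 4.56 higher in Con A than in WT. For Cebpb to Cebpa these differences were 1.29 and 1.09. In each of those 4 tests all libraries of the injected group lay above all WT libraries, and the two-sided exact permutation p was 0.1, the smallest that 3 libraries against 3 can give (0.15 after adjustment over 6 tests). The differences between FMT-Con A and Con A were 0.05 for Cebpd and 0.20 for Cebpb (exact permutation p = 0.8 for each).

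As shares of the C/EBP total per kb of exon, Cebpa made up 55 ± 4.3% in FMT-Con A and 57 ± 10.4% in Con A, against 80.7 ± 3.74% in WT. Cebpb made up 30.3 ± 5.32% in FMT-Con A and 28.3 ± 10.9% in Con A, against 18.3 ± 3.5% in WT. Cebpd made up 14.8 ± 1.08% in FMT-Con A and 14.7 ± 0.822% in Con A, against 0.936 ± 0.413% in WT. The annotated length of Cebpd differs between GENCODE (3746 bases) and RefSeq (2260 bases), and with RefSeq lengths its share was 22.3% in FMT-Con A and 22.2% in Con A, against 1.54% in WT. Exons of Cebpb overlap those of Tmem189 on the other strand (152 to 435 counts a library), those of Cebpd overlap Spidr (19 to 329 counts), and those of Cebpa overlap the antisense gene Gm45091 (7 to 43 counts). The strand setting of the counting is not given in the sources used here, so reads of such pairs cannot be told apart.

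C/EBP-beta and C/EBP-delta are also made by myeloid cells. The 9 neutrophil markers, 7 to 9 with counts, summed to 209.6 to 331 CPM in FMT-Con A and 268 to 468 CPM in Con A, against 9.36 to 14.7 CPM in WT, and all 9 passed as higher in FMT-Con A vs WT and in Con A vs WT. The 7 monocyte markers, 6 or 7 with counts, summed to 1841 to 2357 CPM in FMT-Con A and 2330 to 2982 CPM in Con A, against 540 to 652 CPM in WT. That sum is almost all Fn1, fibronectin, which hepatocytes also make, at 1963 CPM in FMT-Con A and 2525 CPM in Con A, against 574 CPM in WT. Of the 7, 5 were higher and 1 lower in FMT-Con A vs WT, and 4 were higher and 2 lower in Con A vs WT. Cx3cr1 passed as lower in both (log2 fold changes of -6.38 and -4.61) and Ccr2 in Con A vs WT (-0.53), where Lyz2 did not pass (0.27). Kupffer cell markers went both ways. In FMT-Con A vs WT Clec4f (-2.06), Vsig4 (-1.51), Timd4 (-1.21) and Cd5l (-1.60) passed as lower and Marco (2.64) as higher. In Con A vs WT Clec4f (-0.98) and Vsig4 (-0.96) passed as lower, and Marco (3.30), Adgre1 (0.97) and C1qc (0.53) as higher. The other Kupffer cell markers did not pass. The part of these cells in the rise of Cebpb and Cebpd was not tested.

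Most genes of the pathways that induce Cebpb and Cebpd were higher in injected livers. The inducer list held 20 genes of these pathways: cytokines, their receptors, Janus kinases, STAT3, the inhibitor Socs3, NF-kB and CREB family genes. Of these 17 were higher and 1 lower in FMT-Con A vs WT (median log2 fold change 1.83), and 17 were higher and 1 lower in Con A vs WT (median 2.6). Osmr, the receptor of oncostatin M, had 39.6 ± 9.04 CPM in FMT-Con A livers and 40.9 ± 6.15 CPM in Con A livers, against 3.27 ± 0.405 CPM in WT livers. Socs3, the feedback inhibitor of STAT3 signalling, had 216 ± 37 CPM in FMT-Con A livers and 228 ± 79.3 CPM in Con A livers, against 9.85 ± 4.26 CPM in WT livers. Stat3 itself had log2 fold changes of 2.05 in FMT-Con A vs WT and 2.63 in Con A vs WT, and Rela, a subunit of NF-kB, had 1.79 and 2.44. Lifr, the receptor of leukaemia inhibitory factor, was the inducer that passed as lower, at -2.94 in FMT-Con A vs WT and -2.27 in Con A vs WT. Il6ra and Creb1 missed the threshold in all 3 comparisons. Relative to Con A, 0 inducers were higher in FMT-Con A livers and 8 were lower (median -0.66), among them Nfkb1 (-1.06), Crem (-1.15), a cAMP-responsive factor, Jak2 (-0.98) and Il1a (-1.07), where Cebpb and Cebpd did not pass.

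All 19 acute phase genes known as C/EBP-beta and C/EBP-delta targets were higher in FMT-Con A vs WT (median log2 fold change 3.72), and all 19 were higher in Con A vs WT (median 3.57). Lcn2, an iron-siderophore binding protein, had log2 fold changes of 8.92 in FMT-Con A vs WT and 9.01 in Con A vs WT. Fga, the alpha chain of fibrinogen, had 4.16 and 4.32. Saa1 and Saa2, serum amyloid A genes of like sequence whose reads may be split between them, had 8.23 and 9.02 in FMT-Con A vs WT and 8.09 and 8.88 in Con A vs WT. FMT-Con A livers had 0 of them higher and 1 lower than Con A livers, Il1rn, the interleukin-1 receptor antagonist, at 136 ± 3.84 CPM in FMT-Con A livers and 671 ± 167 CPM in Con A livers, against 1.69 ± 0.497 CPM in WT livers. The median log2 fold change there was 0.06, beside -0.01 over all genes.

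The metabolic targets of C/EBP-alpha did not move as a block. Of 8, 1 was higher and 4 lower in FMT-Con A vs WT (median log2 fold change -0.80), against 31.2% higher and 27.9% lower over all tested genes. In Con A vs WT 3 were higher and 3 lower (median 0.17), near the 32.5% higher and 30.9% lower over all tested genes. Gys2, liver glycogen synthase, had -1.67 and -1.97 in those comparisons. Cps1, the first enzyme of the urea cycle, had 405 ± 113 CPM in FMT-Con A livers and 1609 ± 669.9 CPM in Con A livers, against 611 ± 61.4 CPM in WT livers. Hamp, the iron hormone hepcidin, had 638 ± 44.2 CPM in FMT-Con A livers and 1256 ± 247 CPM in Con A livers, against 572 ± 125 CPM in WT livers. Compared with Con A livers, 0 were higher and 5 lower in FMT-Con A livers (Pck1, Cps1, Hamp, Alb and G6pc; median -0.94). These lists share genes: Alb, Pck1, G6pc and Tat stand in both the FOXA and the C/EBP-alpha list, and Pck1 and G6pc in the HNF4A list too.

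Relatives of the C/EBP proteins were higher as well. Of 10 in the list 8 were tested, without Cebpe and Ddit3. With no filter on low counts 9 were tested, so the filter does not account for both, and nothing is said here on their levels. Of the 8 tested, 7 were higher and 0 lower in FMT-Con A vs WT, and 7 were higher and 1 lower in Con A vs WT. Atf3, a stress-induced leucine zipper factor, had 125 ± 22.4 CPM in FMT-Con A livers and 322 ± 119 CPM in Con A livers, against 1.12 ± 0.367 CPM in WT livers. Batf2, a factor of interferon-stimulated cells, had 17 ± 5.04 CPM in FMT-Con A livers and 19.7 ± 4.62 CPM in Con A livers, against 0.651 ± 0.128 CPM in WT livers. Cebpg, a dimer partner without its own activation domain, had log2 fold changes of 0.80 in FMT-Con A vs WT and 1.09 in Con A vs WT. Atf5 was the gene that passed as lower in Con A vs WT (-0.70). As for FMT-Con A vs Con A, 0 were higher and 2 lower, Atf3 (-1.37) and Nfil3 (-0.48), the repressor of D-box genes. Of 5 genes whose products act on C/EBP proteins after translation, 2 were higher and 1 lower in FMT-Con A vs WT and 3 were higher and 1 lower in Con A vs WT. Trib1, a pseudokinase that brings C/EBP-alpha to degradation, had 85.3 ± 3.89 CPM in FMT-Con A livers and 198 ± 30.7 CPM in Con A livers, against 46.9 ± 0.669 CPM in WT livers. Trib1 and Trib3 were lower in FMT-Con A than in Con A livers, with log2 fold changes of -1.21 and -1.38.

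Onecut1 lies on chr9:74861921-74891781 (plus strand, ENSMUSG00000043013). Its level was 7.51, 11.8 and 7.44 CPM in FMT-Con A livers and 5.81, 5.39 and 12.6 CPM in Con A livers, against 34.4, 61.3 and 18.2 CPM in WT livers. Its coefficient of variation within WT, 57.3%, was the highest of the 9 genes, and all injected libraries lay below all WT libraries. Onecut1 had a log2 fold change of -2.09 in FMT-Con A vs WT (SE 0.45, edgeR adjusted p = 0.00306) and -2.25 in Con A vs WT (SE 0.46, edgeR adjusted p = 0.0018). Without both muscle-rich libraries the FMT-Con A vs WT value was -1.68 (edgeR adjusted p = 0.0957). Onecut1 had 0.16 in FMT-Con A vs Con A, with a 95% interval of -0.85 to 1.17, and its sign turned when Con A 1, Con A 2 or FMT-Con A 2 was left out. Onecut1, Foxa1 and Foxa2 are also made by bile duct cells, whose 8 markers (7 or 8 with counts) summed to 101 to 246 CPM in FMT-Con A and 123 to 284 CPM in Con A, against 47.3 to 52.0 CPM in WT. In injected livers most of that sum was Spp1, osteopontin, which other cells also make, at 110.4 CPM in FMT-Con A and 169 CPM in Con A, against 19.2 CPM in WT. Of the 7 bile duct markers tested 5 were higher and 1 lower in each comparison with WT, and the part of bile duct cells in these values was not tested.

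Prox1 lies on chr1:190118035-190170714 (minus strand, ENSMUSG00000010175). Its level was 120.1, 132 and 124 CPM in FMT-Con A livers and 121, 137 and 140.5 CPM in Con A livers, against 142, 119.7 and 174 CPM in WT livers. All 3 groups overlapped. The log2 fold change was -0.21 in FMT-Con A vs WT (95% interval -0.55 to 0.13, edgeR adjusted p = 0.254) and -0.13 in Con A vs WT (95% interval -0.47 to 0.21, edgeR adjusted p = 0.476). For FMT-Con A vs Con A it was -0.08 (edgeR adjusted p = 0.735), and 0.10 with library totals alone. Exons of Prox1 overlap the antisense gene Prox1os (14 to 166 counts a library), and the 6 lymphatic endothelial markers summed to 31.6 to 45.5 CPM in FMT-Con A and 36.5 to 59.7 CPM in Con A, against 26.5 to 37.9 CPM in WT. Of these markers Pdpn (4.62), Mmrn1 (3.49) and Lyve1 (2.63) passed as higher and Flt4 (-1.06) as lower in FMT-Con A vs WT. The same genes passed in the same directions in Con A vs WT. Reln, the largest part of the sum in WT (20.4 CPM), and Ccl21a did not pass in either. In the marker lists used here Reln also stands for stellate cells and Lyve1 for sinusoidal endothelium. The part of lymphatic cells in the Prox1 values was not tested.

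**Figure D4:**
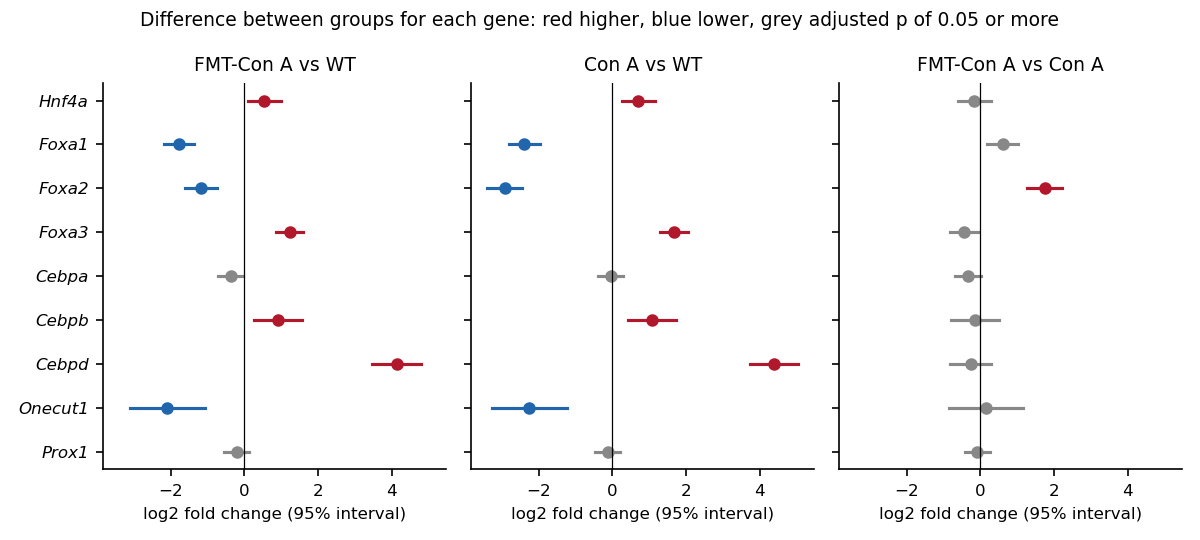
Log2 fold change of each of the 9 genes with its 95% interval in the panels FMT-Con A vs WT, Con A vs WT, then FMT-Con A vs Con A, coloured red where the gene passed as higher, blue where it passed as lower and grey otherwise. The intervals of Cebpa and Prox1 span 0 in Con A vs WT, and Foxa2 stands apart from the other 8 genes in FMT-Con A vs Con A at 1.74.

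The order of the 9 levels per kb of exon differed between groups. In FMT-Con A livers it was Hnf4a (119 CPM per kb), Foxa3 (55.5), Cebpa (52.3), Cebpb (29.3), Prox1 (14.9), Cebpd (14.0), Foxa2 (7.39), Foxa1 (2.69) and Onecut1 (2.17). In Con A livers it was Hnf4a (132), Foxa3 (75.4), Cebpa (65.6), Cebpb (32.4), Cebpd (16.8), Prox1 (15.8), Foxa2 (2.20), Onecut1 (1.93) and Foxa1 (1.76). In WT livers it was Hnf4a (81.3), Cebpa (67.9), Foxa3 (23.7), Prox1 (17.3), Foxa2 (16.8), Cebpb (15.5), Foxa1 (9.28), Onecut1 (9.23) and Cebpd (0.805). Neighbours whose libraries overlapped were Foxa3 with Cebpa, Prox1 with Cebpd and Foxa1 with Onecut1 in FMT-Con A, and Foxa3 with Cebpa, Cebpd with Prox1, Foxa2 with Onecut1 and Onecut1 with Foxa1 in Con A. In WT these were Hnf4a with Cebpa, Foxa3 with Prox1, Prox1 with Foxa2, Foxa2 with Cebpb and Foxa1 with Onecut1.

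Most of the other transcription factors of the liver were lower in injected livers. Of 30 tested, 3 were higher and 24 lower in FMT-Con A vs WT (median log2 fold change -1.16), and 4 were higher and 23 lower in Con A vs WT (median -1.42). Nr1i3, the constitutive androstane receptor of drug metabolism, had 1.56 ± 0.199 CPM in FMT-Con A livers and 2.27 ± 0.839 CPM in Con A livers, against 129.7 ± 8.41 CPM in WT livers. Nr0b2, the corepressor SHP of bile acid feedback, had 2.95 ± 0.861 CPM in FMT-Con A livers and 2.66 ± 0.58 CPM in Con A livers, against 50.4 ± 15.2 CPM in WT livers. Hlf, a clock-driven factor, and Nr2f2, an orphan nuclear receptor, had log2 fold changes of -3.25 and -2.31 in FMT-Con A vs WT and of -3.26 and -2.86 in Con A vs WT. The genes that passed as higher in Con A vs WT were Zhx2 (1.80), Nr5a2 (1.04), Gata6 (1.00) and Foxo3 (0.76), and Rxra, Foxo1 and Rora missed the threshold there. In FMT-Con A vs WT Zhx2 (0.85), Nr5a2 (0.46) and Gata6 (1.27) passed as higher, and Rxra, Foxo3 and Esrra missed the threshold.

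Between FMT-Con A and Con A livers 4 of these 30 factors were higher and 8 lower (median log2 fold change -0.04). Among those that were higher, as Foxa2 was, were Gata4 (0.55) and Nr2f2 (0.54), and both were lower in Con A than in WT livers. The lower ones were Dbp, Zhx2, Foxo3, Klf15, Rora, Ppara, Nr5a2 and Nr3c1, with log2 fold changes of -1.75 to -0.58. These counts between FMT-Con A and Con A depend on which libraries enter. Without the muscle-rich FMT-Con A 1 and 3 together, 99 of 19251 genes passed in all (2981 of 17704 with them), among them 0 of the factors, targets, acute phase genes, relatives and modifiers and 1 inducer, which was lower. The factors were 8 higher and 10 lower without FMT-Con A 2 alone, 2 and 4 without FMT-Con A 1, 1 and 3 without FMT-Con A 3, 1 and 5 without Con A 1, and 2 and 7 without Con A 3 or WT 1. The lower HNF4A targets numbered 11 without FMT-Con A 2, 3 without WT 1, and 2 without FMT-Con A 1, FMT-Con A 3 or Con A 1. For each of those last 3 libraries left out, 2 FOXA targets, 2 C/EBP-alpha targets and 3 or 4 inducers were lower.

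**Figure D5:**
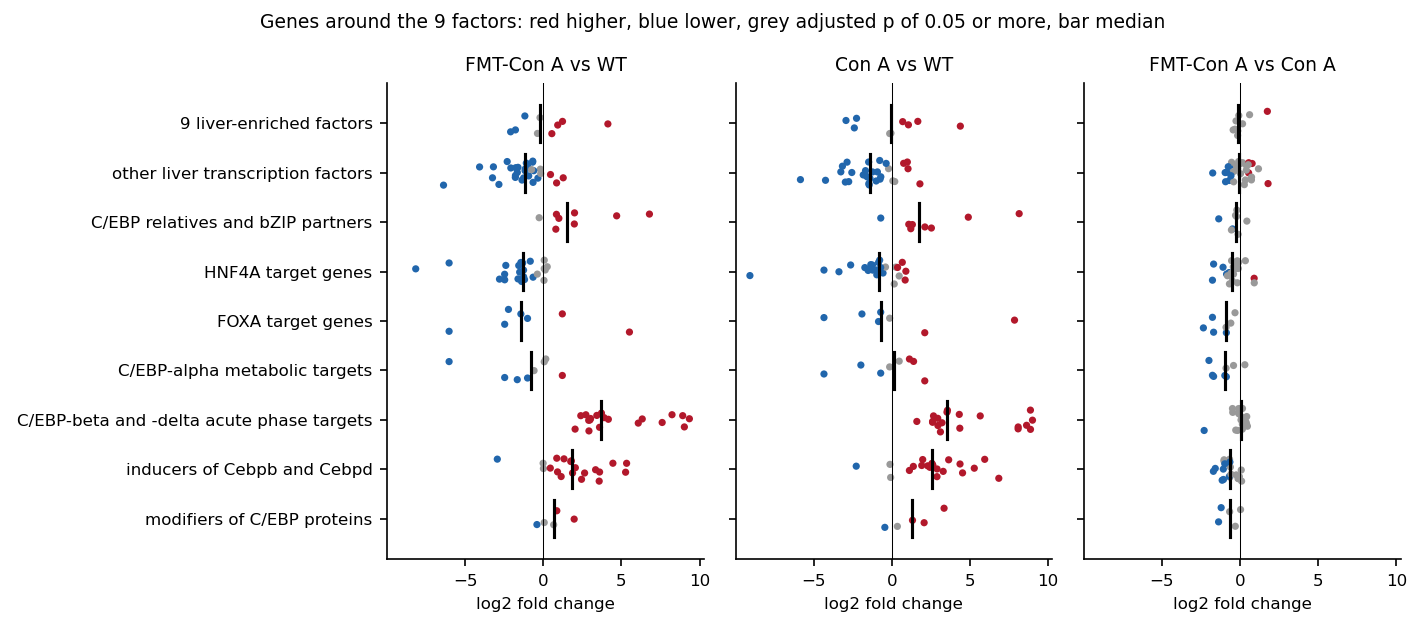
Log2 fold change of each tested gene in the 8 lists of genes around the 9 factors, in the panels FMT-Con A vs WT, Con A vs WT, then FMT-Con A vs Con A, a point per gene with a bar at the list's median, red where it passed as higher, blue where lower and grey otherwise. The 19 acute phase genes all lie above 0 in both comparisons with WT, and 24 and 23 of the 30 other liver factors are marked as lower there.

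The genes whose profile over the 9 libraries was most like that of each factor, among 9585 genes with a mean of at least 5 CPM, are given as a description: the libraries fall into groups, so any gene that follows the groups correlates with any other. Klf13 (Pearson r = 0.991) and Sh3bp2 (0.981) were nearest to Hnf4a, and Snx10 (0.996) and Zfp110 (0.990) to Foxa3. Gatc (0.994) and Zcchc4 (0.992) were nearest to Foxa2, and Dlg3 (0.995) and Snrk (0.993) to Foxa1. Ptprf (0.972) and Pskh1 (0.962) were nearest to Cebpa, Fbxl14 (0.971) and Cwc22 (0.965) to Cebpb, and Car4 and Il1r2 (0.996 each) to Cebpd. Cstf1 (0.984) and Alkbh8 (0.971) were nearest to Onecut1, and Cyth4 (0.894) and Btbd3 (0.887) to Prox1. At r above 0.9 Foxa3 had 1891 such genes, Cebpd 1826, Foxa1 1068 and Foxa2 523, while Cebpa had 18 and Prox1 0.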

How the data were processed

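The values used were the deposited counts of reads per gene, whole numbers with no normalisation. The submitters' processing notes name the tools CASAVA, HISAT2 and featureCounts and the build GRCm38 (mm10), while versions, annotation and strand setting are not given in the sources used here. Per the labels' protocols, Trizol-extracted RNA was sequenced in paired reads. Of the 56719 genes listed, 1360 are numbered models without an Ensembl identifier (1.43 to 1.98% of a library's counts) and 52083 were paired with a symbol by GENCODE vM21, which also gave positions (from 1) and exon lengths.

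The 3 groups shared a single fit of all 9 libraries in edgeR 4.0.16 (R 4.3.3) with TMM normalisation, filterByExpr (minimum count 10, minimum total 15), 6 residual degrees of freedom and the quasi-likelihood F test, two-sided, adjusted by Benjamini-Hochberg over 17704 genes with a threshold of 0.05. A standard error is the size of the log2 fold change divided by the root of its F. Fold changes use a prior count of 0.125, and profiles were correlated on log2 CPM with a prior count of 2. C/EBP ratios used a pseudocount of 0.5 and an exact permutation test. Depth was 20513051 to 29466806 counts a library. The script was tested on simulated data.

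The 9 genes, the 8 lists of related genes and the 12 marker lists were chosen with earlier results of these data known. The text names all 9 genes in each comparison, up to 4 genes with the lowest p from each list, list members where 5 or fewer stood apart, the 2 genes nearest in profile, and genes with overlapping annotation. Single genes of these lists that the rule would name are in places not reported here. Members named outside this rule were chosen after their values were seen. Alternatives were 17: DESeq2 1.42.0, other scalings, no filter, mitochondrial genes left out, the compared groups alone, a replicate block, the muscle-rich libraries left out, and each library left out in turn. RefSeq lengths for the C/EBP shares were added after seeing the data. Same-numbered libraries did not deviate together in every pair (r of -0.22, 0.25 and 0.34 between FMT-Con A and Con A), so the numbers were not taken as pairs.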

Additional observations from a re-analysis of the deposited data

How the results depend on the processing

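The direction and call of the 9 genes held in most settings: of the log2 fold changes of single genes recomputed under 17 alternatives, 427 kept direction and side of the threshold, 11 passed where they had not, 10 no longer passed and 11 changed sign. Leaving out each library in turn, the members higher numbered 2 to 4 and the members lower 3 to 4 in FMT-Con A vs WT, 3 to 4 and 3 in Con A vs WT, and 1 to 2 and 0 to 1 in FMT-Con A vs Con A. The value of 2 in FMT-Con A vs WT came without WT 3 and without FMT-Con A 2. In FMT-Con A vs Con A, 2 were higher with library totals alone, with no filter on low counts and by DESeq2, which also called 1 lower, and 0 were higher without both muscle-rich libraries, where a single FMT-Con A library remains. The changes of sign were all in values that did not pass. With single libraries left out, Con A vs WT ran from -0.18 to 0.087 for Cebpa (without Con A 2) and from -0.27 to 0.0085 for Prox1 (without WT 3). In FMT-Con A vs Con A they were 0.028, 0.025 and 0.10 for Hnf4a, Cebpb and Prox1 with library totals alone, 0.088 and 0.26 for Hnf4a and Cebpb without both muscle-rich libraries, 0.20 for Cebpb without Con A 2, and -0.01, -0.05 and -0.085 for Onecut1 without Con A 1, Con A 2 and FMT-Con A 2. With single libraries left out these values ran from -0.38 to 0.20 for Cebpb and from -0.085 to 0.67 for Onecut1. The log2 ratio of Cebpb to Cebpa between FMT-Con A and Con A ran from -0.20 (without Con A 3) to 0.63, with -0.01 without FMT-Con A 2, and that of Cebpd to Cebpa from -0.069 (without Con A 3) to 0.15; with a library left out the smallest exact permutation p is 0.2. Scaling by library totals alone moved the median of all genes by -0.19 in Con A vs WT and 0.19 in FMT-Con A vs Con A. With a replicate block 4 were higher and 3 lower in Con A vs WT, 3 and 3 in FMT-Con A vs WT and 1 and 0 in FMT-Con A vs Con A, with Hnf4a lost in FMT-Con A vs WT (0.54, adjusted p = 0.0632 by edgeR). The numbers do not establish pairs. Apart from what the construction of a setting shows, the cause was not tested. The lowest counts in a library were 42 for Cebpd, 74 for Foxa2, 84 for Foxa1 and 111 for Onecut1.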
